A study of Homo sapiens with 3 samples.

Results

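The genes described here are 38 genes of autophagy and the lysosome, listed by name and looked up by Ensembl ID with the gene names of GENCODE 29. All 38 were found among the 48162 genes of each deposited file, and all 38 had a mean of at least 1 FPKM (read fragments for each kilobase of transcript, divided by library size), which placed them among the 12649 named genes that were analysed. They divide by role into 23 genes of the autophagy core, 3 cargo receptors, 2 transcription factors of the lysosome and 10 lysosomal proteins. The values come from MDA-MB-231, an established human triple-negative breast cancer cell line, with 1 RNA sequencing library for FoxO3 depletion, 1 for Geminin and FoxO3 co-depletion and 1 for the control. Per the labels' protocols, the cells of all 3 groups were grown in medium with 10% serum, exposed to lentivirus for 24 h, given fresh medium and collected 72 h later, and 3 ug of total RNA went into a TruSeq library. Both depleted libraries carry a digit in their titles whose meaning the labels leave unexplained. Neither the depletion sequences nor the control's vector is stated in the labels. Which question the study asked of these genes is not stated in the labels.

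Autophagy encloses cytoplasm in a double membrane, the autophagosome, and delivers it to the lysosome for digestion. A kinase complex built on ULK1 starts the process, a lipid kinase complex built on PIK3C3 marks the forming membrane with the lipid PI3P, ATG2 and ATG9 proteins supply lipid, and ubiquitin-like conjugation fixes the ATG8 proteins (the LC3 and GABARAP families) to the membrane, where receptors such as SQSTM1 bring cargo. Many lysosomal genes, though not all, share a promoter element bound by TFEB and TFE3. The forkhead factor FoxO3 is known, chiefly from mouse skeletal muscle, to raise transcription of several autophagy genes.

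Transcripts of both targets were low in the matching libraries. FOXO3 was at 2.79 FPKM in the FoxO3 depletion, 2.94 in the co-depletion and 12.2 in the control, and GMNN, which encodes Geminin, was at 112.2, 37.0 and 112.3 FPKM in the same order. The FPKM values rest on 10760613 reads in the FoxO3 depletion, 12267332 in the co-depletion and 14507410 in the control, totals recovered from the values themselves. The mesenchymal markers of this line, VIM, CD44 and AXL, summed to 2025, 1958 and 1758 FPKM. The 5 genes set down as low in it summed to 52.5, 56.4 and 52.3 FPKM, nearly all of it ERBB2 and EPCAM, with ESR1 and PGR at no more than 0.12 FPKM. The 5 leukocyte and macrophage markers summed to 9.64, 10.5 and 10.8 FPKM, with CD3E at 0 in all 3 libraries and CD14 between 6.76 and 8.59. The 3 markers of HEK293 packaging cells summed to at most 0.057 FPKM, and the endothelial marker CDH5 was at 0.056, 0 and 0 FPKM.

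Each group holds 1 library, so the differences below have no replicate check and carry no p-value. A log2 ratio sets FPKM + 1 of the depleted library over FPKM + 1 of the control, or of the co-depletion over the FoxO3 depletion, and a gene is called lower or higher by size alone, at 1.5-fold on that scale. The range in parentheses after an FPKM ratio is its exact 95% Clopper-Pearson interval, computed from recovered reads. These intervals cover counting error only and compare 2 libraries, not 2 conditions. The 2 comparisons with the control share the control library, so any feature of that library enters both. In bulk RNA a lower level in every cell and a loss from some of the cells cannot be told apart.

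Most of the 38 genes lay within 1.5-fold of the control in both depleted libraries. The share called lower did not exceed that of all analysed genes, and in the co-depletion it was near it. In the FoxO3 depletion 4 members, or 10.5%, were called lower, against 16.7% of all analysed genes. They were RB1CC1, ATG14, ATG12 and ATG2B. The 2 called higher, SQSTM1 and ATG101, were 5.26%, against 4.0% of all genes. In the co-depletion 4 members, or 10.5%, were called lower, RB1CC1, ATG14, PIK3C3 and ATG2B, against a background of 12.3%. There 0 were called higher, against 4.02%. All of the lower calls were core genes, which are 23 of the 38. The core thus had 17.4% of its genes called lower in each comparison, beside backgrounds of 16.7% and 12.3%. Of the 10 lysosomal proteins 0 were called in either direction in either comparison. With ratios adjusted for the GC content of each gene's transcripts, 1 member was lower (RB1CC1) and the same 2 were higher in the FoxO3 depletion, against 8.45% and 5.78% of all genes. In the co-depletion 1 member was then lower (ATG14) and 0 were higher, against 5.67% and 4.51%. The 1 lower gene was 4.35% of the core in each comparison.

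**Figure D1:**
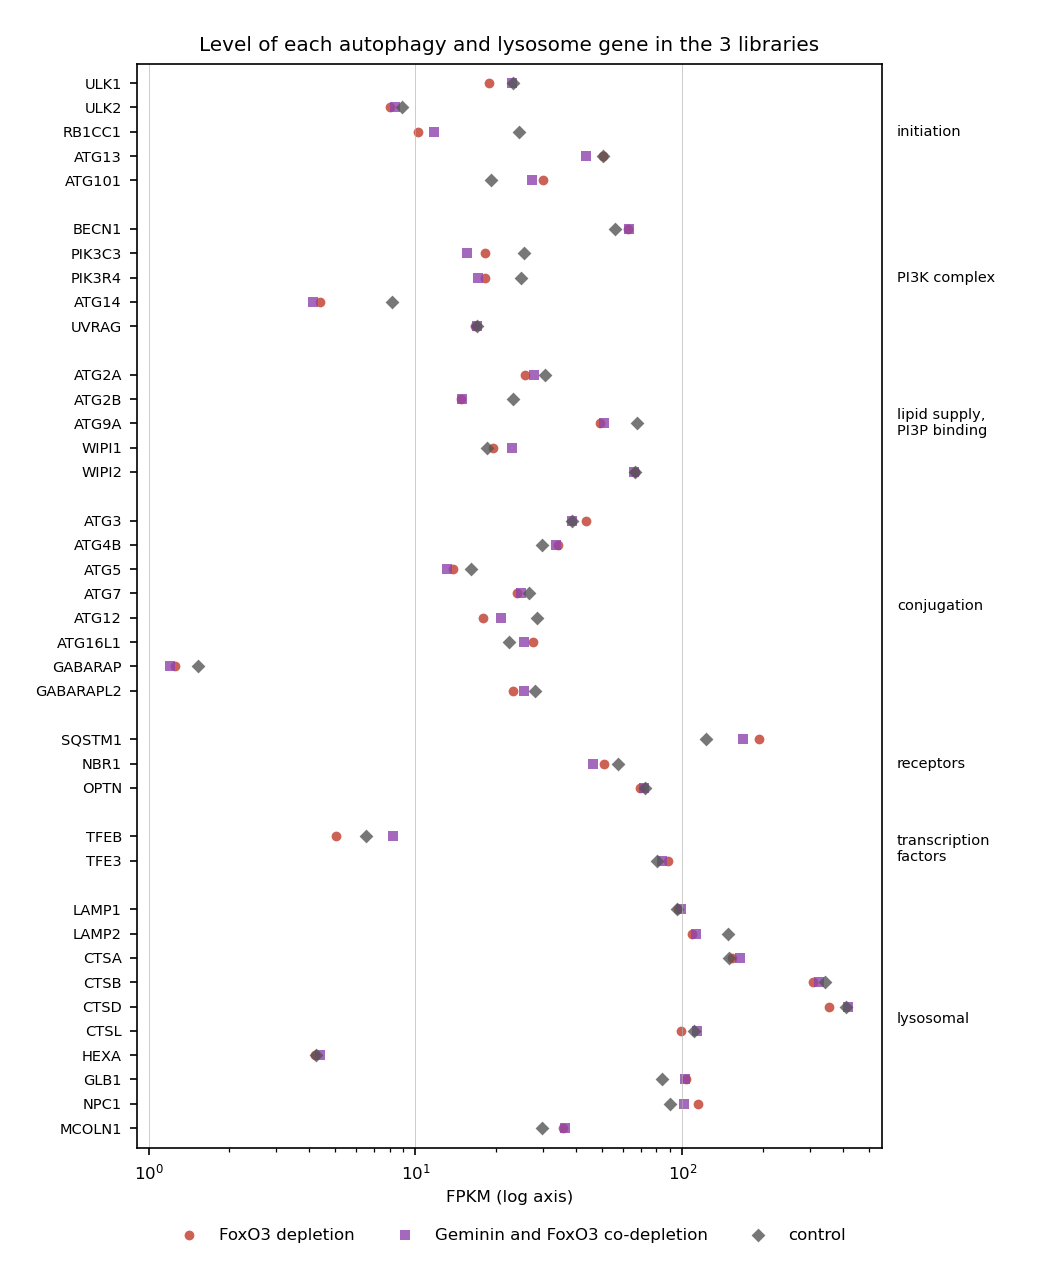
FPKM (log axis) of the 38 genes in the FoxO3 depletion (circles), the co-depletion (squares) and the control (diamonds), 1 library each, ordered by role. The lysosomal genes other than HEXA and MCOLN1 lie at or above 84.02 FPKM in all 3 libraries, above most core genes, and the widest gaps between control and depleted libraries are at RB1CC1 and ATG14.

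Among the initiation genes, the scaffold of the kinase complex, RB1CC1 (ENSG00000023287, also called FIP200), had the lowest ratio of all 38 genes in both comparisons with the control. It stood at 10.2 FPKM with FoxO3 depletion and 11.8 with co-depletion, against 24.4 in the control. Both depleted libraries were thus below the control by more than counting error. The FPKM ratio was 0.421 (0.362 to 0.488) for the FoxO3 depletion and 0.483 (0.422 to 0.552) for the co-depletion. Its log2 ratio of -1.17 after FoxO3 depletion was lower than that of all but 2.76% of the analysed genes. Genes of the same GC content had a median log2 ratio of -0.50, and the adjusted ratio of RB1CC1 was -0.67. In the co-depletion its log2 ratio was -0.99, or -0.580 adjusted, just short of the size rule of 0.585.

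The small HORMA-domain subunit ATG101 (ENSG00000123395), which binds and stabilises ATG13, went the other way within the same complex. Its level was 30.1 FPKM with FoxO3 depletion and 27.3 with co-depletion, against 19.2 in the control. The FPKM ratios were 1.57 (1.23 to 2.0) and 1.42 (1.12 to 1.81), from 151, 156 and 130 reads. GC adjustment left its log2 ratio of 0.62 in the FoxO3 depletion at 0.60. An antisense transcript covers 19.2% of the exonic bases of ATG101, and since the strand setting of the counting is not given, reads of both cannot be told apart.

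The 3 other subunits differed less. The kinase ULK1 was at 18.8 FPKM in the FoxO3 depletion, 23.0 in the co-depletion and 23.2 in the control, so only the FoxO3 depletion was below the control, with an FPKM ratio of 0.811 (0.711 to 0.924). The related kinase ULK2, at 8.05, 8.39 and 8.91 FPKM, had counting intervals that included equality in both comparisons. ATG13, the regulatory subunit phosphorylated by mTORC1, was at 50.4 FPKM with FoxO3 depletion and 43.6 with co-depletion, against 50.3 in the control, so here the co-depletion was the lower library.

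The PI3P-forming complex has as its core the lipid kinase PIK3C3 (VPS34), its scaffold PIK3R4 (VPS15) and BECN1, and is directed by ATG14 to autophagosome formation or by UVRAG to endosomes. The median log2 ratio of these 5 genes was -0.43 with FoxO3 depletion and -0.51 with co-depletion, the lowest of the 4 core steps in both. After GC adjustment the medians were 0.03 and -0.17. The lowest of the 4 core steps was then lipid supply and PI3P binding in both comparisons, at -0.28 and -0.24. The genes of the complex differed among themselves, since BECN1 and UVRAG had no lower value in either depleted library beyond counting error.

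ATG14 (ENSG00000126775) had 4.37 FPKM with FoxO3 depletion and 4.15 with co-depletion, against 8.14 in the control. Both depleted libraries held about the same level, well below the control. The FPKM ratios were 0.537 (0.458 to 0.629) and 0.510 (0.436 to 0.594), from 222, 240 and 557 reads. Genes of its GC content were lower by 0.21 in the median of the FoxO3 comparison, and the adjusted log2 ratios of ATG14 were -0.56 and -0.64.

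PIK3C3 (ENSG00000078142) was at 18.3 FPKM with FoxO3 depletion and 15.6 with co-depletion, against 25.6 in the control. The co-depletion was the lower of the depleted libraries by no more than counting error, with an FPKM ratio to control of 0.610 (0.507 to 0.730), while that of the FoxO3 depletion was 0.714 (0.595 to 0.854). PIK3C3 transcripts have a GC content of 38.9%, and genes of that content had a median log2 ratio of -0.66 in the FoxO3 comparison. Its own log2 ratios of -0.46 and -0.68 became 0.20 and -0.17 with the adjustment, so in the FoxO3 depletion it lay above the median of genes of like composition.

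The scaffold PIK3R4 was at 18.2, 17.1 and 24.8 FPKM in the FoxO3 depletion, the co-depletion and the control, with log2 ratios of -0.43 and -0.51, or -0.25 and -0.34 adjusted. BECN1, the regulatory subunit bound by BCL2, was at 62.9, 63.0 and 56.1 FPKM, slightly above the control in both depleted libraries. UVRAG was at 16.8, 17.0 and 17.1 FPKM, with FPKM ratios of 0.983 (0.848 to 1.14) and 0.995 (0.864 to 1.15).

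Lipid supply and PI3P binding rest on 5 members, of which ATG2A and ATG2B are lipid transfer proteins, ATG9A is a scramblase in the vesicles that seed the membrane, and WIPI1 and WIPI2 bind PI3P. ATG2B (ENSG00000066739) was at 14.8 FPKM with FoxO3 depletion and 15.0 with co-depletion, against 23.2 in the control. The depleted libraries lay within counting error of each other, with FPKM ratios to control of 0.638 (0.562 to 0.724) and 0.644 (0.571 to 0.727). GC adjustment took its log2 ratios of -0.61 and -0.60 to -0.45 and -0.44. Its paralogue ATG2A was at 25.6, 27.8 and 30.7 FPKM, also below the control in both, by less.

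ATG9A was at 49.3 FPKM with FoxO3 depletion and 50.8 with co-depletion, against 67.5 in the control. Its transcripts are GC-rich at 58.8%, and its log2 ratios of -0.44 and -0.40 were -0.50 and -0.49 with the adjustment, so the lower level was not shared with genes of like composition. A second annotated gene on the same strand covers 38.8% of the exonic bases of ATG9A, which leaves its level uncertain. WIPI2 was at 66.3, 66.1 and 66.7 FPKM in the FoxO3 depletion, the co-depletion and the control, within counting error of each other. WIPI1 was at 19.5, 23.1 and 18.6 FPKM, so that only the co-depletion stood above the control, with an FPKM ratio of 1.24 (1.06 to 1.46). On the opposite strand ARSG overlaps 24.3% of its exonic bases.

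In conjugation, ATG7 and ATG3 act as the activating and transfer enzymes, ATG12 is the ubiquitin-like protein that is joined to ATG5 and works with ATG16L1, and ATG4B is a protease that trims and releases the ATG8 proteins. The median log2 ratio of the 8 genes was -0.15 with FoxO3 depletion and -0.11 with co-depletion. With GC adjustment both medians were above 0, at 0.06 and 0.07.

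ATG12 (ENSG00000145782) was at 17.9 FPKM with FoxO3 depletion and 20.9 with co-depletion, against 28.6 in the control. The FoxO3 depletion held the lowest level, with an FPKM ratio of 0.626 (0.546 to 0.715), while that of the co-depletion was 0.733 (0.648 to 0.828). ATG12 is the most AT-rich of the 38 genes, with a GC content of 38.9%. Its log2 ratio of -0.65 in the FoxO3 depletion equalled the median of genes of that content, -0.67, to within 0.02, which is its adjusted ratio. ATG5, also AT-rich, was at 13.8, 13.2 and 16.2 FPKM, with log2 ratios of -0.22 and -0.28 that became 0.41 and 0.20.

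The other conjugation genes were nearer the control. ATG3 was at 43.7 FPKM in the FoxO3 depletion, 38.5 in the co-depletion and 38.7 in the control, so the FoxO3 depletion alone was above it. ATG16L1, which sets the place of conjugation, was above the control in both depleted libraries at 27.5 and 25.5 FPKM against 22.5. ATG4B was at 34.3 and 33.8 FPKM against 29.8, a difference beyond counting error in the FoxO3 depletion alone. ATG7 was at 24.1 and 24.8 FPKM against 26.6 in the control, within counting error. The ATG8 protein GABARAPL2 was at 23.3 and 25.5 FPKM against 28.0 in the control. Its relative GABARAP was listed at 1.26, 1.21 and 1.53 FPKM from only 11, 12 and 18 reads, and 2 other annotated genes share 55.7% of its exonic bases, so no difference could be read from it.

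**Figure D2:**
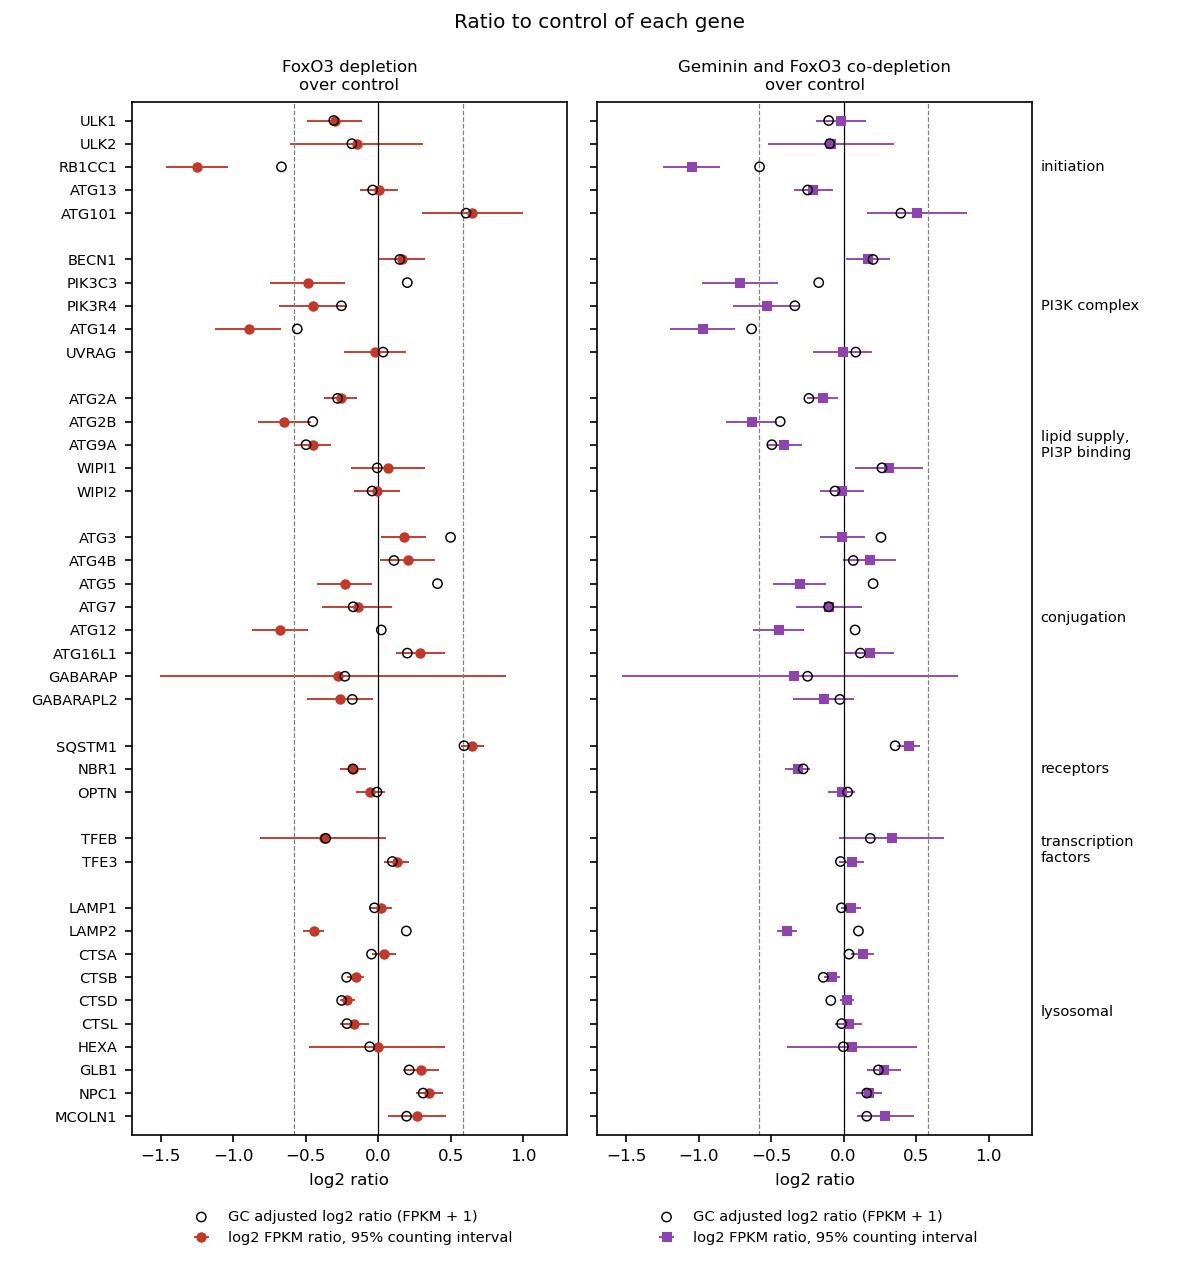
Log2 FPKM ratio to control of each gene with its 95% counting interval (filled symbols) and its GC-adjusted log2 ratio on the FPKM + 1 scale (open circles), for FoxO3 depletion (left) and co-depletion (right). Dashed lines mark 1.5-fold. The open circles of ATG12, PIK3C3, ATG5 and LAMP2 lie well to the right of their filled symbols, while those of SQSTM1, ATG101, ATG9A and NPC1 stay close to theirs.

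Of the receptors, SQSTM1 (ENSG00000161011, p62), which links ubiquitinated cargo to ATG8 proteins and is itself degraded by autophagy, had the highest ratio of the 38 genes in the FoxO3 depletion. It was at 193.0 FPKM there and at 168.3 in the co-depletion, against 123.2 in the control. The levels were ordered FoxO3 depletion, co-depletion, control, with each step beyond counting error. The FPKM ratio to control was 1.57 (1.48 to 1.66) in the FoxO3 depletion and 1.37 (1.29 to 1.44) in the co-depletion, and that of the co-depletion to the FoxO3 depletion was 0.872 (0.827 to 0.920). The log2 ratio of 0.64 in the FoxO3 depletion was higher than that of 96.9% of analysed genes, and it was 0.59 after GC adjustment. MRNIP, on the opposite strand, overlaps 20.7% of the exonic bases of SQSTM1. NBR1, a receptor with similar domains, was lower at 51.0 and 46.1 FPKM against 57.5 in the control, with FPKM ratios of 0.886 (0.834 to 0.942) and 0.802 (0.755 to 0.852). OPTN, a receptor for mitochondria and bacteria, was at 69.5 and 71.6 FPKM against 72.3, within counting error. These are RNA levels, and the amount of p62 protein, which autophagy lowers, was not measured here.

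Of the transcription factors, TFEB (ENSG00000112561), the factor that switches on lysosomal genes when mTORC1 is off, was the one member with more than 1.5-fold between the depleted libraries, which lay on opposite sides of the control. It was at 5.04 FPKM with FoxO3 depletion and 8.23 with co-depletion, against 6.54 in the control. The FPKM ratio of the co-depletion to the FoxO3 depletion was 1.63 (1.22 to 2.21), from 134 and 72 reads. Against the control the FPKM ratio was 0.770 (0.569 to 1.04) in the FoxO3 depletion and 1.26 (0.979 to 1.62) in the co-depletion, and both intervals include equality. TFE3, its relative, was far more abundant per length, at 88.1 FPKM in the FoxO3 depletion, 83.8 in the co-depletion and 80.7 in the control.

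The lysosomal proteins had the highest median level of the 4 classes and no member past 1.5-fold. Their median level was 105.8 FPKM in the FoxO3 depletion, 107.4 in the co-depletion and 103.1 in the control, against core medians of 19.5, 23.1 and 24.8 FPKM. The 10 genes took 0.192%, 0.205% and 0.209% of all FPKM. The median log2 ratio to control was 0.01 in the FoxO3 depletion, or -0.04 with GC adjustment, and 0.05 in the co-depletion, or 0.02 adjusted.

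The structural membrane protein LAMP1 was at 96.7 FPKM in the FoxO3 depletion, 98.9 in the co-depletion and 95.4 in the control, with all 3 libraries within counting error. LAMP2, the second major glycoprotein of the lysosomal membrane and the one needed for fusion with autophagosomes, had the lowest ratio of the class at 108.7 and 112.8 FPKM against 148.1. Its FPKM ratios were 0.734 (0.697 to 0.771) and 0.762 (0.726 to 0.799), but its transcripts have a GC content of 39.3%, and the adjusted log2 ratios were above 0, at 0.19 and 0.10.

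The cathepsins are the proteases of the lysosome. The aspartic protease CTSD, the most abundant member, was at 355.2 FPKM with FoxO3 depletion and 418.0 with co-depletion, against 411.9 in the control. Only the FoxO3 depletion was low, with an FPKM ratio to control of 0.862 (0.831 to 0.894). The cysteine protease CTSL showed the same order of libraries at 98.8, 113.6 and 110.9 FPKM. For both, the co-depletion exceeded the FoxO3 depletion beyond counting error, with FPKM ratios of 1.18 (1.13 to 1.22) for CTSD and 1.15 (1.07 to 1.24) for CTSL. CTSB, another cysteine protease, was at 307.8 and 324.7 FPKM against 343.4 in the control. CTSA, the protective protein of the galactosidase and sialidase complex, was at 153.5 and 163.8 FPKM against 149.5. Another annotated gene on the same strand covers 41.7% of the exonic bases of CTSD, so its level is uncertain.

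Of the remaining members, 3 were above the control in both depleted libraries beyond counting error. NPC1, which exports cholesterol from the lysosome, was at 114.5 FPKM with FoxO3 depletion and 101.1 with co-depletion, against 89.6 in the control, with FPKM ratios of 1.28 (1.20 to 1.36) and 1.13 (1.06 to 1.20). The beta-galactosidase GLB1 was at 103.0 and 102.0 FPKM against 84.02, and the calcium channel MCOLN1 was at 35.9 and 36.3 FPKM against 29.8. HEXA, the alpha subunit of hexosaminidase, was at 4.22 and 4.41 FPKM against 4.23, from 68, 81 and 92 reads. None of these reached 1.5-fold.

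The promoter windows of RefSeq (build GRCh38.p14, 250 bases before to 50 after the start) were read for the letters CACGTG, the E-box core, for TCACGTGA, an 8-base E-box that contains CACGTG and is the centre of the element bound by TFEB and TFE3, and for the forkhead letters GTAAACA, all on both strands. Windows were matched for 33 of the 38 genes, of which 21 were core and 7 lysosomal. RB1CC1 and UVRAG of the core and CTSB, LAMP2 and HEXA of the lysosomal genes had no matched window and were not read. CACGTG stood in 4 of the 7 lysosomal genes (LAMP1, CTSA, CTSD and MCOLN1) and in 2 of the 21 core genes (ATG3 and ATG14), against 7.26% of all 35116 windows. TCACGTGA stood in 3 of the 7 lysosomal genes and 1 of the 21 core genes (ATG3), against 0.98% of all windows. GTAAACA stood in 0 of the 21 core genes and in 1 lysosomal gene, CTSL at -152, against 3.42% of all windows. The windows below are those of the 3 lysosomal genes with TCACGTGA and, from the core, of ATG14. ATG14 holds CACGTG alone and was picked because it was about equally low in both depleted libraries. The window of ATG3, the core gene with TCACGTGA, is not shown. Capitals mark CACGTG or, where it is present, TCACGTGA, and positions are those of the first base of the motif, with the start at 1. LAMP1 (chr13:113296989-113297288, plus strand) holds CACGTG at -192, -176, -159, -142, -28 and -1, the last 2 within TCACGTGA. MCOLN1 (chr19:7522374-7522673, plus strand) holds it at -41 and -14, both within TCACGTGA. CTSA (chr20:45891085-45891384, plus strand) holds it at -42 and, within TCACGTGA, at -25. ATG14 (chr14:55411781-55412080, minus strand) holds it at -21.
LAMP1: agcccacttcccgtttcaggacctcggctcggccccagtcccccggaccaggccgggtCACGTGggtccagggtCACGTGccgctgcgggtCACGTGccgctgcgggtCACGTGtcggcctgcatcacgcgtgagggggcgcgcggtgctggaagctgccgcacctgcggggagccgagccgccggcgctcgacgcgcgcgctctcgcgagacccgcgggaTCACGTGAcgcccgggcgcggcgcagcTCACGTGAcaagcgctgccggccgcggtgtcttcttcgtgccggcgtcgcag
MCOLN1: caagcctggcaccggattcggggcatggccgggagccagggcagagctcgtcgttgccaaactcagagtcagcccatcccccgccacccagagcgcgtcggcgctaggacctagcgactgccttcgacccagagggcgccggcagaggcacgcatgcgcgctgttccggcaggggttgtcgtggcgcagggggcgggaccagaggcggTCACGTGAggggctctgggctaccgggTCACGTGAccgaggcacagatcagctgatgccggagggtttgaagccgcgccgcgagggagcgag
CTSA: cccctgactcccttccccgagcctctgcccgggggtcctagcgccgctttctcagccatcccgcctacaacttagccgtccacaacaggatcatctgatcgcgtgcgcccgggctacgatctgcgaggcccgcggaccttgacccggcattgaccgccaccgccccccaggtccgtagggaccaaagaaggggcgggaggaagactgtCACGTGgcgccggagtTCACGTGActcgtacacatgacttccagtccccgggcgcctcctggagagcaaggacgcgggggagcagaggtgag
ATG14: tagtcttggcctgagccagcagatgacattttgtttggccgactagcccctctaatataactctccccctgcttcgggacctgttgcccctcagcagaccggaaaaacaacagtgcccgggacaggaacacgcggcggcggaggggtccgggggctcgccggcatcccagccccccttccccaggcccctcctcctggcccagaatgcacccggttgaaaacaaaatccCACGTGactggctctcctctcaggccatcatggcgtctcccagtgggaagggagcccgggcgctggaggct
The 3 lysosomal genes with TCACGTGA had log2 ratios to control of 0.02 (LAMP1), 0.26 (MCOLN1) and 0.04 (CTSA) in the FoxO3 depletion, and of 0.05, 0.28 and 0.13 in the co-depletion. ATG3, the core gene with TCACGTGA, had log2 ratios of 0.17 and -0.01 in the same order. Of the genes with CACGTG alone, CTSD had -0.21 and 0.02, and ATG14 had -0.77 and -0.83. A match in these windows is a description of letters and was not tested as a binding site.

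Set against the lysosomal proteins, the core had the lower median ratio to control. Of the 23 core genes 16 had a log2 ratio below 0 with FoxO3 depletion and 18 with co-depletion. Of the 10 lysosomal genes 5 and 2 did, against 57.1% and 56.3% of all analysed genes. With GC adjustment the counts below 0 were nearer, at 14 of 23 core genes in both comparisons and 6 and 5 of the 10 lysosomal genes. The core median was -0.16 with FoxO3 depletion and -0.13 with co-depletion, below the lysosomal medians by 0.17 and 0.18 on the log2 scale, while the median of all analysed genes was -0.07 and -0.06. Core and lysosomal genes differ in composition, with median GC contents of 48.9% and 52.2%. With the adjustment, the core median was -0.04 and the lysosomal median -0.04 in the FoxO3 depletion, so the difference between the classes was -0.01. In the co-depletion the adjusted medians were -0.10 and 0.02, a difference of -0.11.

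Among the 12649 analysed genes divided into 10 bins by GC content, the median log2 ratio of the poorest bin was -0.71 with FoxO3 depletion and -0.53 with co-depletion, and that of the richest was 0.03 and 0.09. The core genes followed this more closely than the lysosomal genes did. Spearman's rho between log2 ratio and GC content was 0.46 with FoxO3 depletion and 0.53 with co-depletion in the 23 core genes. It was 0.05 and 0.21 in the 10 lysosomal genes, which are too few to tell a weak relation from none. Across the 38 genes rho was 0.39 and 0.58, against 0.41 and 0.44 over all genes. The 38 genes share their 3 libraries and are not replicates. Of the 23 core genes 15 have under 50% GC. All 4 lower calls of each comparison were among these 15. The share of all genes under 50% GC that were called lower was not computed. Lower ratios at low GC content were not particular to the core, since bins 2 and 3 of all genes had medians of -0.41 and -0.22 with FoxO3 depletion. With co-depletion those medians were -0.33 and -0.20. The median log2 ratio of the 15 core genes was -0.22 in the FoxO3 depletion, or -0.01 adjusted, while that of the 8 GC-richer core genes was -0.09, or -0.14 adjusted. The source of the relation with GC content was not tested. RB1CC1 and ATG14 lay below the 50-bin running median of all genes by most in both comparisons, and SQSTM1 and ATG101 lay above it by most in the FoxO3 depletion.

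**Figure D3:**
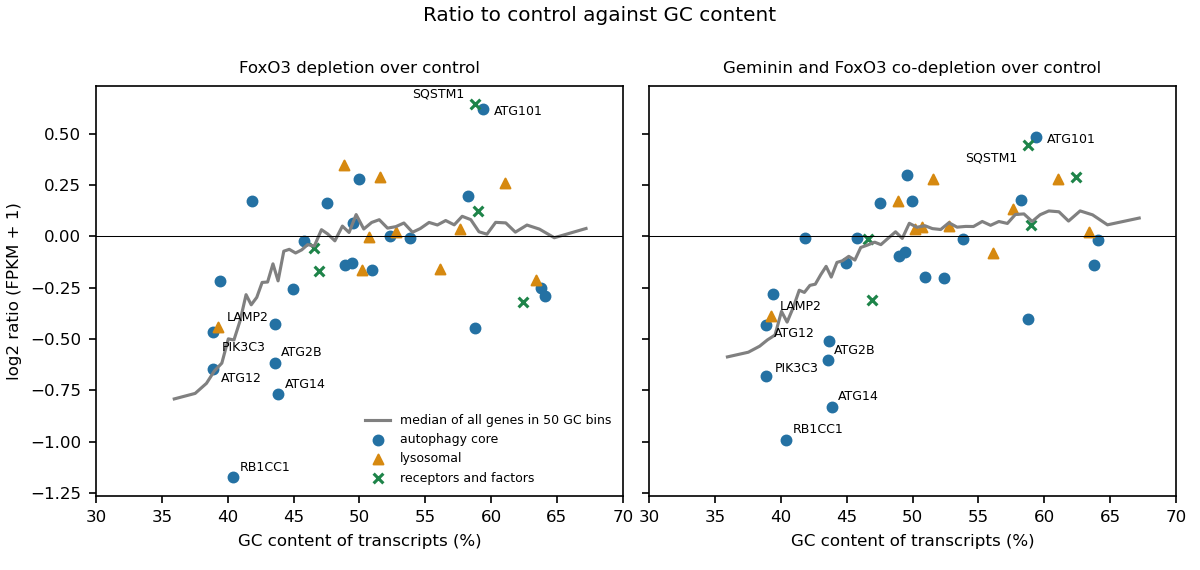
Log2 ratio to control (FPKM + 1) of each member against the GC content of its transcripts (%), for FoxO3 depletion (left) and co-depletion (right), with the median of all analysed genes in 50 bins of GC content (line). ATG12, under 40% GC, lies on the line in the left panel, PIK3C3 and LAMP2 lie above it there, and RB1CC1 and ATG14 lie below it in both.

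The co-depletion and the FoxO3 depletion, which differ by the depletion of Geminin, were close to each other in these genes. Of the 38 members 0 were called lower, against 0.617% of all genes, and 1, TFEB, was called higher, against 1.35%. With GC adjustment the log2 ratio of TFEB was 0.55, below the size rule, and 0 members were called in either direction, against 0.712% lower and 1.07% higher among all genes. The core median was 0.00 and the lysosomal median 0.05, beside 0.03 for all genes. Besides TFEB, members higher in the co-depletion beyond counting error were CTSD, CTSL, CTSA, CTSB, ULK1 and ATG12. Members lower beyond it were SQSTM1, NPC1, NBR1, ATG13 and ATG3. Of the 10 lysosomal genes 8 had a log2 ratio above 0 and 2 below, with 56.4% of all genes above 0. With GC adjustment 7 were above 0 and 3 below, with 50.05% of all genes above 0. Whether Geminin depletion alone does the same was not analysed here, since no library of that kind was used.

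The members leave out the LC3 genes and most regulators, so 7 further lists were described in the same way. Of 22 other genes of the autophagy machinery 3 were lower and 2 higher in the FoxO3 depletion, or 13.6% and 9.09%, against 16.7% and 4.0% of all analysed genes. In the co-depletion 1 was lower and 1 higher, or 4.55% each, against 12.3% and 4.02% of all genes, so the lower calls were no more frequent than the background. ATG4C, a protease for ATG8 proteins, was at 4.86 FPKM with FoxO3 depletion and 6.25 with co-depletion, against 11.2 in the control, but its log2 ratio of -1.06 in the FoxO3 depletion was -0.27 after GC adjustment. ATG16L2, a relative of ATG16L1, was at 8.34 and 11.3 FPKM against 16.6, and WDR45, a PI3P-binding WIPI protein, was at 11.9 and 16.5 FPKM against 22.1. Their adjusted log2 ratios in the FoxO3 depletion were -0.94 and -0.91. With GC adjustment 2 of the 22 were lower and 2 higher there, or 9.09% each, against 8.45% and 5.78% of all genes. In the co-depletion 1 was then lower and 1 higher, or 4.55% each, against 5.67% and 4.51%. PRAF2, on the same strand, covers 13.9% of the exonic bases of WDR45. RUBCN, which encodes Rubicon, an inhibitor of the UVRAG form of the lipid kinase complex, was higher in both at 41.3 and 42.8 FPKM against 26.2, and its adjusted log2 ratios were 0.59 and 0.63. MAP1LC3B, an ATG8 gene of the LC3 family, was at 74.4 and 73.3 FPKM against 67.9.

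Of 9 other cargo receptors 4 were lower with FoxO3 depletion and 3 with co-depletion, with 0 higher in either. These are 44.4% and 33.3% of the list, against backgrounds of 16.7% and 12.3%, in a list of few genes. They were CCPG1 and SEC62, receptors for the endoplasmic reticulum, the mitophagy receptor BNIP3L and, in the FoxO3 depletion, TAX1BP1. CCPG1 was at 1.81 and 2.49 FPKM against 5.48 in the control, SEC62 at 46.1 and 63.9 against 101.9, and BNIP3L at 61.9 and 68.8 against 107.5. The CCPG1 values rest on 39, 61 and 159 reads. DNAAF4-CCPG1, on the same strand, covers 38.7% of the exonic bases of CCPG1, which leaves its level uncertain. After GC adjustment 0 of the 9 were lower in either comparison, against 8.45% and 5.67% of all genes. BNIP3L came closest to a lower call, with adjusted log2 ratios of -0.58 and -0.45. The mitophagy receptor FUNDC1 was called higher in the co-depletion by its adjusted log2 ratio of 0.68 alone. Unadjusted, it was at 21.4 FPKM there against 18.7 in the control. Its FPKM ratio was 1.14 (0.972 to 1.35), an interval that includes equality. That 1 gene is 11.1% of the list, against 4.51% of all genes.

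Of 9 autophagy genes that active FoxO3 is known to raise in mouse muscle, a list that includes 5 members, 2 were lower in the FoxO3 depletion (ATG12 and BNIP3L) and 1 was higher (GABARAPL1), against 16.7% lower and 4.0% higher among all genes. In the co-depletion PIK3C3 and BNIP3L were lower and 0 were higher, against 12.3% and 4.02%. With 9 genes, a count of 2 is 22.2%. Their median log2 ratio was -0.07 and -0.08, and 0.09 and 0.06 with GC adjustment, when 0 of the 9 were called in either direction. GABARAPL1, the GABARAP-like ATG8 gene of this list, was at 32.2 FPKM with FoxO3 depletion and 30.4 with co-depletion, against 20.8 in the control, so it was higher where FOXO3 was low.

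Of 35 other lysosomal enzymes 4 were lower with FoxO3 depletion and 0 with co-depletion, with 0 higher in either. The lower share in the FoxO3 depletion, 11.4%, was below the 16.7% of all genes. Of all genes 12.3% were lower in the co-depletion, and 4.0% and 4.02% were higher with FoxO3 depletion and co-depletion. The 4 were ASAH1, acid ceramidase, at 23.0 FPKM in the FoxO3 depletion against 42.1 in the control, ARSA, arylsulfatase A, at 1.66 against 3.51, IDUA, alpha-L-iduronidase, at 6.42 against 11.3, and the cathepsin CTSF at 32.5 against 51.8. In the co-depletion all 4 were nearer the control, with log2 ratios between -0.52 and -0.36. With GC adjustment 3 were lower and 3 higher in the FoxO3 depletion, against 8.45% and 5.78% of all genes, since ASAH1 was then at -0.55 and the cathepsin CTSS, the thioesterase PPT1 and the acid lipase LIPA were at 0.71, 0.63 and 0.59. In the co-depletion PPT1 alone was then called, higher at 0.69. That is 2.86% of the list higher and 0 lower, against 4.51% and 5.67% of all genes. Unadjusted, CTSS was at 7.96 FPKM in the FoxO3 depletion against 6.78 in the control. Its FPKM ratio was 1.17 (0.953 to 1.44), an interval that includes equality. PPT1 was at 213.0 FPKM against 142.8, a ratio of 1.49 (1.29 to 1.73). CAP1, on the opposite strand, overlaps 23.4% of the exonic bases of PPT1. Of 17 other lysosomal membrane and sorting proteins 1, the transporter MFSD8, was lower in both comparisons, or 5.88%, against 16.7% and 12.3% of all genes. It was at 10.4 and 11.04 FPKM against 18.1, and its log2 ratio of -0.75 in the FoxO3 depletion was 0.00 after adjustment.

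The proton pump had medians above 0, with few calls. Of 15 analysed genes of the V-ATPase, which acidifies the lysosome, 10 had a log2 ratio above 0 with FoxO3 depletion and 11 with co-depletion, or 66.7% and 73.3% against 42.9% and 43.7% of all genes, with medians of 0.17 and 0.15. With GC adjustment 12 and 14 of the 15 were above 0, or 80.0% and 93.3% against 50.04% and 49.8% of all genes, with medians of 0.22 and 0.27. The membrane subunit ATP6V0B was the 1 gene of the 15 called, higher in both, at 196.9 FPKM with FoxO3 depletion and 187.6 with co-depletion, against 121.0 in the control. That 1 gene is 6.67% of the list, against 4.0% and 4.02% of all genes. In the co-depletion the adjusted log2 ratio of ATP6V0B was 0.52, below the size rule. Of 26 genes that control mTORC1, the kinase complex that restrains ULK1 and TFEB, 4 were lower and 1 higher in the FoxO3 depletion, and 3 were lower in the co-depletion. The lower shares, 15.4% and 11.5%, were near the 16.7% and 12.3% of all genes. The higher share in the FoxO3 depletion, 3.85%, was near the 4.0% of all genes. The folliculin partners FNIP1 and FNIP2 went apart in the FoxO3 depletion, at 7.37 FPKM against 13.6 for FNIP1 and 16.4 against 10.2 for FNIP2. DEPDC5, of the GATOR1 complex, was at 2.76 FPKM against 5.34, and PRKAA1, a catalytic subunit of AMPK, was at 59.3 against 97.98. Of these 3 lower genes DEPDC5 alone kept an adjusted log2 ratio past the size rule, at -0.79.

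**Figure D4:**
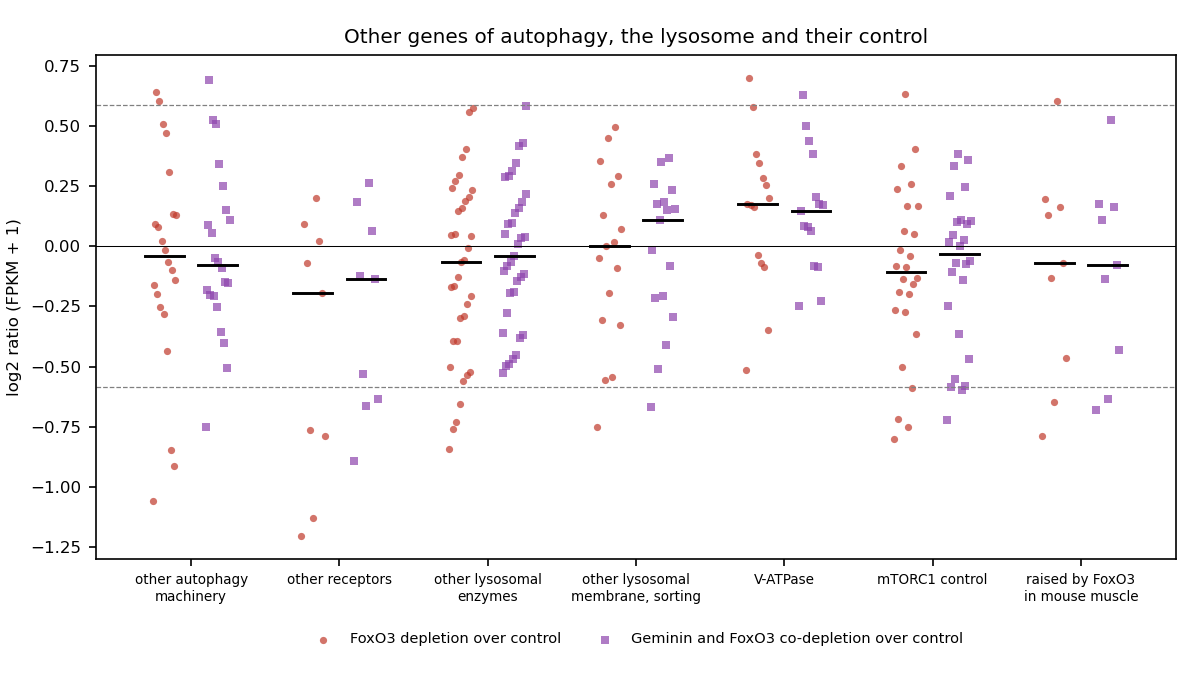
Log2 ratio to control (FPKM + 1) of the genes in 7 further lists, each point a gene, for FoxO3 depletion (circles, left of each pair) and co-depletion (squares, right). Black bars are medians and dashed lines mark 1.5-fold. The V-ATPase has the highest median in both comparisons, and the other receptors the lowest.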

How the data were processed

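RNA of 3 MDA-MB-231 cultures, 1 per group, was analysed from the FPKM values per Ensembl gene that the authors deposited, 1 file per library. TopHat2 2.0.9 is named in the submitters' processing notes. The sources used here do not give the counter, FPKM tool, genome build, annotation or strand setting, so reads of overlapping genes and near-identical copies cannot be told apart. Groups came from the titles read with the series' design text.

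Names, transcript GC content, lengths and exon overlaps came from GENCODE 29, which named 45341 of 48162 IDs. The 12649 named genes with a mean of at least 1 FPKM were analysed. Whole reads were recovered for 99.9854% of 20591 genes above 0 in at least 2 libraries, with a tolerance that matched 0.2% of 500 random values. Where all 3 true numbers of a gene had a divisor in common, the recovered ones may be too small and its intervals too wide. For the GC adjustment, the median log2 ratio of genes in 50 bins of GC content was interpolated and subtracted. No test was possible with 1 library per group. The members, lists, roles and the GC adjustment were chosen with earlier results of these data known. Genes named were FOXO3, GMNN, all members and up to 4 genes per further list with the largest ratios past 1.5-fold. The cell markers are named besides, as are MAP1LC3B, FUNDC1, CTSS, PPT1 and LIPA, chosen after their values were seen. Of the 2 endothelial markers CDH5 was analysed and PECAM1 was not analysed here. Scripts were tested on simulated data and used Python 3.11.15, numpy 2.4.6, pandas 2.3.3, scipy 1.17.1 and matplotlib 3.10.9. Alternatives were pseudocounts of 0.1 and 0.5 FPKM, a minimum mean of 5 FPKM or none, values rescaled to TPM or by the median ratio, adjustment for GC content or for GC content and length, and size rules of 0.32 on the log2 scale and of 2-fold.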

Additional observations from a re-analysis of the deposited data

How the results depend on the processing

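The number of members called lower in the FoxO3 depletion, 4 as reported, was 2 after rescaling by the median ratio, 1 with GC adjustment, 1 with GC and length adjustment, 8 with a size rule of 0.32 on the log2 scale and 1 with 2-fold. The number called higher there, 2 as reported, was 0 with GC and length adjustment and 0 with 2-fold. In the co-depletion, the 4 lower members became 1 with GC adjustment, 1 with GC and length adjustment, 8 with the 0.32 rule and 0 with 2-fold, and the 0 higher members became 2 with the 0.32 rule. Between co-depletion and FoxO3 depletion, the 1 higher member became 0 with GC adjustment, 0 with GC and length adjustment and 0 with 2-fold. The share of all genes called was computed only for the reported setting and for GC adjustment. Counts under the other settings and size rules therefore have no background to be read against. The log2 ratio of ATG12 in the FoxO3 depletion turned from below 0 to 0.020 with GC adjustment and 0.059 with GC and length adjustment. Over the settings tried, the core median less the lysosomal median ranged between -0.24 and -0.01 in the FoxO3 depletion and between -0.19 and -0.09 in the co-depletion. For co-depletion over FoxO3 depletion it ranged between -0.06 and -0.05. In the FoxO3 depletion the GC-adjusted difference of -0.01 was close to none. Rescaling applies the same factor to all genes of a library, so it could hardly change this difference. No paired analysis was possible because each group holds 1 library and no test was made. Leaving out a library would leave a comparison without a group. Depth limits GABARAP, HEXA, TFEB and ULK2, which rest on at most 134 reads in any library. Members under a mean of 5 FPKM have no value under that minimum.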

Other observations

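Some genes that most cells use were listed at or near 0 FPKM, among them 3 genes of the further lists, chosen after their values were seen. The V-ATPase proteolipid ATP6V0C was at 0.33 FPKM in the FoxO3 depletion, 0.29 in the co-depletion and 0.57 in the control, beside the other listed genes of the pump at 23.5 to 196.9 FPKM. The lysosomal glycoprotein CD68 was listed at 0 in all 3 libraries, and the membrane protein CLN3 was at 0, 0.36 and 0.25 FPKM. In GENCODE 29 another gene on the same strand shares 57.5% of the exonic bases of ATP6V0C, 81.7% of those of CD68 and 25.2% of those of CLN3. For GABARAP, the member with the lowest level, the same-strand share was 30.5%. CTSD and ATG9A, with same-strand shares of 41.7% and 38.8%, were nevertheless at 355.2 and 49.3 FPKM in the FoxO3 depletion. The part of gene overlap in these low values was not tested.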
